A study of Mus musculus with 6 samples.

Results

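The ribosomal proteins of the cytosolic ribosome were described on arrays of mouse primary myoblasts in which LncMyoD was targeted. A probe set, the group of short oligonucleotides that reads a transcript, was a member if the platform annotation gave it exactly 1 gene symbol and that symbol belonged to a numbered Rpl or Rps gene, to Rplp0, Rplp1 or Rplp2, or to Rpsa. The rule used names and no measured values. It took 100 of 45101 probe sets, which read 46 genes: 24 of the large subunit with 44 probe sets and 22 of the small subunit with 56.

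Primary myoblasts are cultured precursors of muscle that can fuse into multinucleated fibres, and LncMyoD is a long non-coding RNA studied in muscle differentiation. In 3 samples the myoblasts had received a lentiviral shRNA against LncMyoD in a Tet-pLKO-puro vector, which allows a drug to switch the hairpin on, and 3 samples were controls. Every sample was given an age of 21 days. The labels do not say what the controls received, in which of the growth and differentiation media the profiled cells were kept, or whether the biological replicates came from separate animals or cultures, so a p-value here measures the spread between these arrays. LncMyoD itself was matched to no probe set, so its knockdown is not analysed here.

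The ribosome is built from ribosomal RNA and about equal amounts of each ribosomal protein, in a large subunit that joins amino acids and a small subunit that reads the mRNA. Ribosomal protein mRNAs belong to the TOP mRNAs, which start with a run of pyrimidines (5′ terminal oligopyrimidine) through which growth signals control their translation more than their amount. Growing myoblasts make many ribosomes, and ribosomal proteins that are not built into ribosomes can stabilise p53 by binding its ubiquitin ligase Mdm2.

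Most ribosomal protein mRNAs differed little between the groups, and a few fell clearly in LncMyoD shRNA myoblasts. Of 46 genes, 42 were bright enough to be tested with limma, and 8 were higher, 8 were lower and 26 did not pass an adjusted p of 0.05. That is 38.1% of the members, against 58.5% of all 12408 tested genes. The decreases were led by Rpl14, at a log2 difference (shRNA minus control) of -0.83, and Rps6, at -0.41, and the increases by Rps27l, at 0.17. Not all decreases held on every probe set of the gene. Rps6 had another that was called higher, and the brightest ones of Rpl41, Rps20 and Rps24 did not pass. The median size of the difference was 0.059 on the log2 scale for the members and 0.21 for all tested genes. A difference under 0.1 in either direction was found for 28 members, and 0 members reached a 2-fold difference, which 471 of all tested genes did. Most members were bright, and of all 886 tested genes with a mean log2 signal above 13, 0 reached a 2-fold difference either. The median size was 0.083 for those 886 genes and 0.048 for the 31 members above 13.

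Both subunits held changes in both directions. In the large subunit 5 of 22 tested genes were higher and 4 lower, 13 did not pass, and the median difference was 0.032. In the small subunit 3 of 20 were higher and 4 lower, 13 did not pass, and the median was 0.019. Over all tested genes the median was 0.046, with 35.7% called higher and 22.8% lower. The arrays of the groups did not overlap for 18 tested members, 10 with shRNA arrays above and 8 with shRNA arrays below, against 64.8% of all tested genes.

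The decreases and increases did not depend on the scaling to the same degree. With the arrays centred, so that all had the same median over tested probe sets, 0 large subunit genes and 1 small subunit gene, Rps27l, were called higher, 5 of each subunit were called lower, and the medians became -0.032 and -0.045. The same centring moved the share of increases among all called genes to 49.8%, from 61.0% as deposited. Single arrays also moved the increases: the large subunit count was 3 without shRNA array 2, 3 without shRNA array 3 and 1 without control array 3, and the small subunit count was 1 without control array 3. Without any 1 array the count of decreases stayed at 4 in the large subunit and at 3 or 4 in the small.

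**Figure D1:**
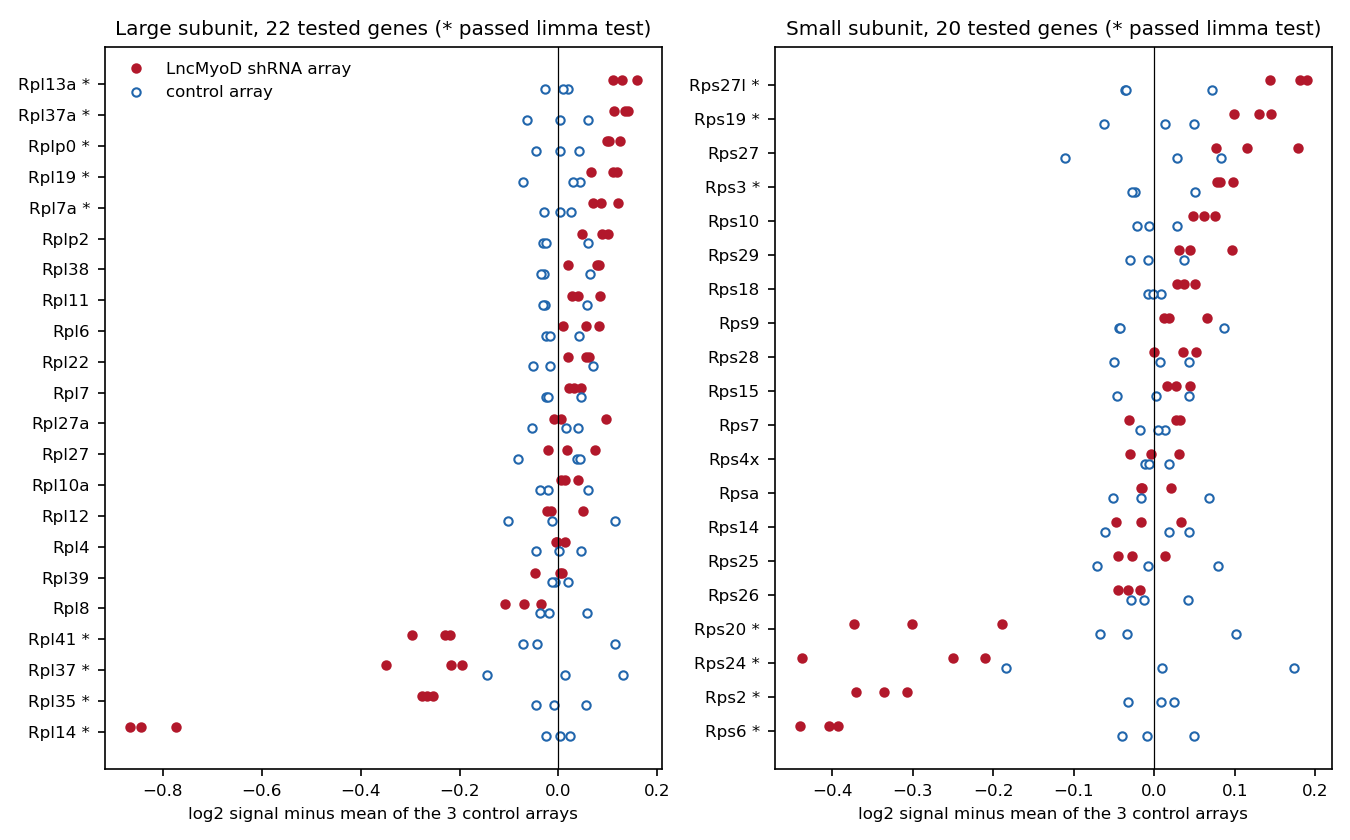
Log2 signal of each tested ribosomal protein gene on each array, less the mean of the 3 control arrays (filled points, LncMyoD shRNA arrays; open points, control arrays), with the large subunit on the left and the small subunit on the right, on x axes of different length. An asterisk marks the 9 large and 7 small subunit genes that passed limma's test, and Rpl14 lies farthest from 0.

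A run of pyrimidines at the start and an ETS site were more common in these genes than in others. A promoter window from RefSeq (GRCm38.p6), 250 bases before the annotated start and 50 after it, was found for 40 of the 46 genes. A run of at least 8 C or T letters within 25 bases of the start, on the strand of the gene, stood in 20 of these 40 (50%), against 19.4% of 27025 genes with a window and 18.9% of the 10023 among them that were tested. The 30 bases around the start, 15 before it and 15 from it, are shown for 3 genes that were lower with the shRNA, Rpl14, Rpl35 and Rps6, for Rps2, which was lower without such a run, for Rpl7a, which was higher, and for Rpl38, which did not pass. Capitals mark the longest run of C and T.
Rpl14, chr9:120571502-120571531, plus strand: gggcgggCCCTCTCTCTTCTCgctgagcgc
Rpl35, chr2:39005117-39005146, minus strand: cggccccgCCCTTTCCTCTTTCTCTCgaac
Rps6, chr4:86857353-86857382, minus strand: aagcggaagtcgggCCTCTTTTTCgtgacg
Rps2, chr17:24720048-24720077, plus strand: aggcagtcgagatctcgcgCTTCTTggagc
Rpl7a, chr2:26910792-26910821, plus strand: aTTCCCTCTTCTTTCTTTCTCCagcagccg
Rpl38, chr11:114668565-114668594, plus strand: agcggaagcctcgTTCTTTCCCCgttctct

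The run did not separate the members by their change. It stood in 3 of the 8 genes that were higher, in 4 of the 7 genes with a window that were lower, and in 12 of the 22 tested genes with a window that did not pass. An annotated start need not be the base where transcription starts in these cells, so a run near it is a description of the sequence only.

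The letters CGGAAG, the core that factors of the ETS family such as Gabpa bind, were found on either strand in 29 of the 40 windows (72.5%), against 17.2% of all windows and 30.8% of those of tested genes. They were in 5 of the 8 genes that were higher, 5 of the 7 that were lower and 17 of the 22 that did not pass. On the opposite strand the letters read CTTCCG, of which CTTCC can lie within a run of C and T. Of the other letters searched on both strands, AAGATGGC (the core of Yy1 sites) was in 5% of member windows and 4.68% of tested windows, GGGCGG (an Sp1 site) in 52.5% and 63.3%, and TATAA in 30% and 13.3%. The ETS core is shown in capitals for Rps6 and Rpl35, which were lower, and Rps27l, which was higher; its first base lies at position -12 from the start in Rps6, -127 in Rpl35 and 10 in Rps27l.
Rps6, chr4:86857362-86857391, minus strand: ccctgggttaagCGGAAGtcgggcctcttt
Rpl35, chr2:39005241-39005270, minus strand: aggaaggcaggaCTTCCGggaagcggaggg
Rps27l, chr9:66946084-66946113, plus strand: ccgcctctatccCGGAAGttgctgaggggc

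In the large subunit the clearest decrease was that of Rpl14, a structural protein of the subunit. Its log2 signal was 11.59, 11.56 and 11.66 on the LncMyoD shRNA arrays, against 12.45, 12.43 and 12.40 on the control arrays. The groups lay far apart, and the difference was -0.83 (SE 0.040, limma adjusted p = 5.90e-09), or 1.77-fold lower. This was its 1 probe set with a single symbol. A further 5 probe sets listed Rpl14 together with the pseudogene Rpl14-ps1, and all 5 were lower, by -0.22 to -0.079, so the size of the decrease differed between the probe sets that could read this gene.

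Rpl35, which sits beside the exit of the tunnel through which the new protein leaves, was lower on all 6 of its probe sets. The probe set that stood for the gene read 13.58, 13.60 and 13.57 on the shRNA arrays, against 13.91, 13.84 and 13.81 on the control arrays. These groups did not overlap, nor did they on its other 5 probe sets. The difference was -0.27 (SE 0.035, limma adjusted p = 2.92e-05), and over the 6 probe sets it ran from -0.43 to -0.13.

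Rpl37, a zinc-binding protein of the large subunit, read 11.84, 11.71 and 11.86 on the shRNA arrays, against 12.07, 11.91 and 12.19 on the control arrays. The highest shRNA array lay just below the lowest control array, with a difference of -0.25 (SE 0.064, limma adjusted p = 0.00469). Its probe set ends in _x_at, a suffix for probes that can also bind other transcripts, and 3 probe sets that listed Rpl37 with Rpl37rt did not pass, at differences of -0.019 to 0.0045.

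Rpl41, the smallest ribosomal protein, had probe sets that differed. The one that stood for it read 10.27, 10.20 and 10.28 on the shRNA arrays and 10.46, 10.61 and 10.43 on the control arrays. The groups did not overlap on it, with a difference of -0.25 (SE 0.060, limma adjusted p = 0.00346), and a second probe set was lower by -0.30. Its brightest probe set, which ends in _x_at, stood at 0.030 (limma adjusted p = 0.495).

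The increases of the large subunit ran from 0.092 to 0.13 on the log2 scale. Rpl13a, which in human cells also silences inflammatory mRNAs outside the ribosome, read 13.57, 13.55 and 13.60 on the shRNA arrays, against 13.46, 13.42 and 13.45 on the control arrays. Its groups did not overlap, and the difference was 0.13 (SE 0.033, limma adjusted p = 0.00427), with 2 of its 4 probe sets called higher and 0 lower. Rpl37a, another zinc-binding protein, stood at 13.23, 13.25 and 13.26 on the shRNA arrays and at 13.18, 13.12 and 13.05 on the control arrays. Its groups also lay apart, by 0.13 (SE 0.038, limma adjusted p = 0.0115), with 2 of 3 probe sets called. Without control array 3 it did not pass (0.097, limma adjusted p = 0.0622).

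Rplp0 forms the base of the stalk that recruits elongation factors. It read 13.78, 13.75 and 13.75 on the shRNA arrays, against 13.69, 13.66 and 13.61 on the control arrays, which did not overlap, and differed by 0.11 (SE 0.034, limma adjusted p = 0.0162). Its call was lost without control array 3 (0.085, limma adjusted p = 0.0861). Rplp2, a protein at the tip of the stalk, averaged 13.84 ± 0.028 in shRNA samples and 13.76 ± 0.051 in controls (SD, n = 3 arrays each) and did not pass, at 0.078 (limma adjusted p = 0.0787). It did pass without control array 1 (0.11, limma adjusted p = 0.0167).

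Rpl19 and Rpl7a, structural proteins of the large subunit, were the other increases. Rpl19 differed by 0.099 (limma adjusted p = 0.0387) and Rpl7a by 0.092 (limma adjusted p = 0.0274), and the arrays of the groups did not overlap for either. Neither call held without shRNA array 2 (0.093 for Rpl19 and 0.10 for Rpl7a), shRNA array 3 (0.089 and 0.078) or control array 3 (0.063 and 0.077), and that of Rpl7a also ended without control array 2 (0.094).

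Large subunit members with known roles beside protein synthesis were among those that did not pass. Rpl11, which with 5S ribosomal RNA binds Mdm2, averaged 13.97 ± 0.030 in shRNA samples and 13.92 ± 0.050 in controls, a difference of 0.050 with a 95% interval of -0.026 to 0.13. Rpl38, needed in mice for the translation of a subset of Hox mRNAs, averaged 14.05 ± 0.034 in shRNA samples and 13.99 ± 0.055 in controls. Its difference was 0.060 (95% interval -0.019 to 0.14), and it passed without control array 1 (0.092, limma adjusted p = 0.0371). The groups overlapped for both genes.

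Rpl22, whose protein binds RNA and is known to hold down its own paralog Rpl22l1, gave different answers on its 3 probe sets. The brightest stood at 0.046 and the next at -0.027, and neither passed. The dimmest ran from 11.91 to 12.06 on the 3 shRNA arrays, against 12.27 to 12.39 on the 3 control arrays. The groups did not overlap there, with a difference of -0.33 (limma adjusted p = 7.96e-05). Rpl22l1 itself, which is no member by the rule, read 13.38, 13.39 and 13.38 on the shRNA arrays and 13.78, 13.66 and 13.69 on the control arrays. It too lay apart, by -0.33 (SE 0.037, limma adjusted p = 8.83e-06).

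In the small subunit Rps6, the substrate of S6 kinase downstream of mTOR, had the largest decrease. It read 12.11, 12.15 and 12.16 on the LncMyoD shRNA arrays, against 12.60, 12.54 and 12.51 on the control arrays. The groups lay apart, by -0.41 (SE 0.039, limma adjusted p = 1.53e-06), or 1.33-fold lower. Its other probe set went the opposite way, at 8.47, 8.51 and 8.45 on the shRNA arrays and 8.30, 8.10 and 8.11 on the control arrays. That difference was 0.31 (limma adjusted p = 0.00978), and Rps6 was the 1 member whose probe sets were called in opposite directions. Of 9 probe sets that listed Rps6 with the pseudogene Rps6-ps4, 4 were lower, 0 higher and 5 did not pass.

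Rps2, a protein beside the channel where the mRNA enters, read 12.62, 12.65 and 12.58 on the shRNA arrays, against 12.98, 12.96 and 12.92 on the control arrays. The groups lay apart, by -0.34 (SE 0.036, limma adjusted p = 4.84e-06), or 1.26-fold lower. This probe set also ends in _x_at. Both probe sets that listed Rps2 with the gene models Gm10420 and Gm6139 were lower too, at -0.49 and -0.43.

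Rps20 and Rps24, proteins of the head and of the lower part of the small subunit, were lower on probe sets that were not their brightest. Rps20 read 10.79, 10.86 and 10.98 on the shRNA arrays, against 11.27, 11.10 and 11.13 on the control arrays. These did not overlap, with a difference of -0.29 (SE 0.059, limma adjusted p = 0.00120), but 2 brighter probe sets ending in _x_at stood at -0.015 and 0.0037 and did not pass. Rps24 was lower by -0.30 on a dim probe set (8.43 ± 0.12 in shRNA samples, 8.73 ± 0.18 in controls, limma adjusted p = 0.0254), whereas its 4 bright probe sets stood at 0.041 to 0.082 and did not pass. The call of Rps24 was lost without shRNA array 3 (-0.23, limma adjusted p = 0.107) or control array 2 (-0.21, 0.125).

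Rps27l was the member with the largest increase. It is a paralog of Rps27 that p53 is known to switch on, and it read 13.67, 13.72 and 13.71 on the shRNA arrays, against 13.60, 13.49 and 13.49 on the control arrays. The groups did not overlap, the difference was 0.17 (SE 0.037, limma adjusted p = 0.00178), and its other 2 probe sets were higher too, by 0.14 and 0.17. Rps27 read 11.94, 11.87 and 11.83 on the shRNA arrays and 11.79, 11.84 and 11.65 on the control arrays. Those groups overlapped, and the difference of 0.12 did not pass (unadjusted 95% interval 0.011 to 0.24, limma adjusted p = 0.0617). It passed without control array 2 (0.16, limma adjusted p = 0.0266). Whether the paralogs differed from each other was not tested.

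The other increases of the small subunit were Rps19 and Rps3. Rps19, the protein most often mutated in human Diamond-Blackfan anaemia, read 14.04, 14.07 and 14.08 on the shRNA arrays and 13.99, 13.95 and 13.87 on the control arrays. Its groups did not overlap and differed by 0.12 (SE 0.036, limma adjusted p = 0.00986), a call lost without control array 3 (0.094, limma adjusted p = 0.0643). Rps3, which lines the mRNA entry channel and also takes part in DNA repair, differed by 0.086 (limma adjusted p = 0.0420) and did not pass without any 1 of 5 arrays, at 0.073 to 0.090, control array 1 being the exception.

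Of the other small subunit members with known roles, none passed on the probe set that stood for it. Rpsa, a ribosomal protein also described as a laminin receptor, stood at -0.0034 there. Its second, dim probe set read 8.02, 8.12 and 8.04 on the shRNA arrays, against 8.61, 8.72 and 8.62 on the control arrays. The groups lay apart on it, by -0.59 (limma adjusted p = 5.61e-05), the largest decrease of any small subunit probe set. Rps25, which some viral RNAs need to start translation, differed by -0.020 (95% interval -0.11 to 0.075), and Rps26, beside the mRNA exit, by -0.032 (95% interval -0.10 to 0.041).

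The members too dim to be tested included paralogs known from particular tissues. Rpl3l, the paralog of Rpl3 found in heart and skeletal muscle, averaged 5.10 ± 0.18 in shRNA samples and 5.01 ± 0.11 in controls, and Rpl39l, a paralog of Rpl39 known from the testis, averaged 6.38 ± 0.037 in shRNA samples and 6.41 ± 0.14 in controls. Both lay below the lowest mean signal tested, 6.50, and their groups overlapped. Rps4l, a relative of Rps4x, read 5.90, 5.96 and 5.78 on the shRNA arrays, against 6.28, 6.35 and 6.52 on the control arrays. These did not overlap, and with no filter on dim probe sets the difference was -0.50 (SE 0.12, limma adjusted p = 0.00586), at a signal not shown to lie above background. Rps4x and Rpl39, the broadly expressed partners, differed by -0.00084 and -0.012 and did not pass. The fourth untested gene was Rps16, whose 1 probe set with a single symbol averaged 4.75 in shRNA samples and 4.77 in controls.

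Ribosomal protein probe sets crowded the bright end of the arrays. Of the 42 tested member genes 31 (73.8%) had a mean log2 signal above 13, against 7.14% of all tested genes. Signals of different probe sets are not comparable as amounts of mRNA, so brightness serves here only to sort probe sets. Among the 65 member probe sets above 13, 12 were higher, 5 lower and 48 did not pass, or 26.2% called against 40.6% of all tested probe sets above 13 (18.5% higher and 22.1% lower). All 5 lower ones were probe sets of Rpl35. The median difference was 0.041 for the members and 0.00062 for all probe sets above 13.

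Dimmer member probe sets were more often called lower than higher. Of 18 between 10 and 13, 2 were higher and 11 lower, 5 did not pass, and the median was -0.20, against 0.040 for all tested probe sets in that range. That is 72.2% called, against 65.5% of all 9958 in that range, of which 3763 were higher and 2755 lower. Of 10 below 10, 1 was higher and 4 lower, 5 did not pass, and the median was -0.15, against 0.012. Here 50% were called, against 47.8% of all 15542 in that range, of which 4169 were higher and 3261 lower. Over all 93 tested member probe sets 15 were higher, 20 lower and 58 did not pass, against 53.9% called of all tested probe sets (30.4% higher and 23.5% lower).

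**Figure D2:**
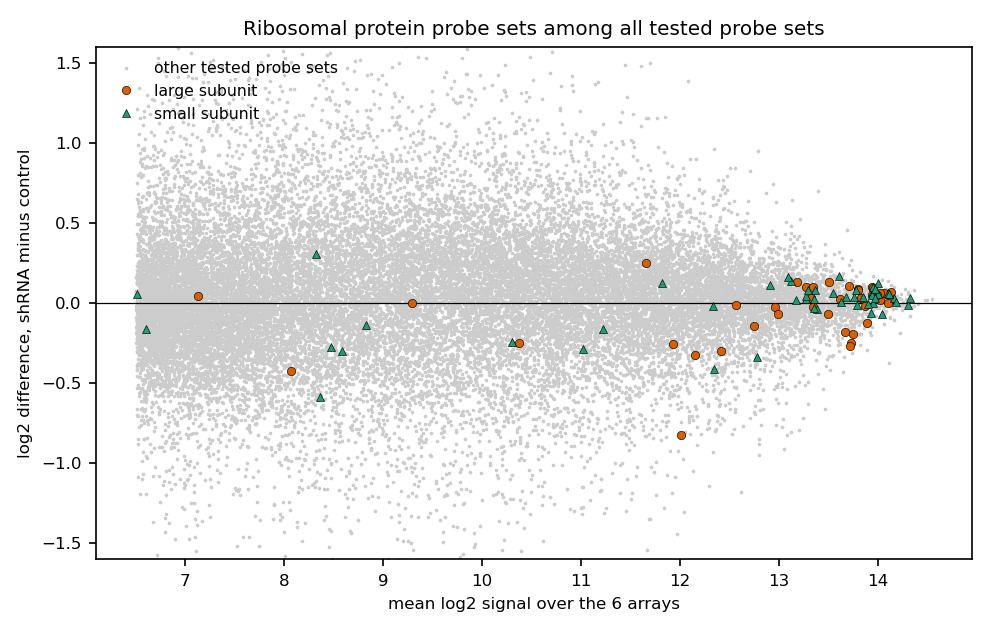
Log2 difference (shRNA minus control) of each tested probe set against its mean log2 signal over the 6 arrays, with large subunit members as circles, small subunit members as triangles and all tested probe sets in grey; 135 probe sets, none of them members, lie beyond the axis at 1.6 in either direction. Members above 13 lie close to 0, and most of those between 10 and 13 lie below it.

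Probe sets of the same gene also differed by brightness. In 13 member genes that had a probe set above 13 and others below it, 15 of the 19 dimmer probe sets (78.9%) had a more negative difference than the brightest, against 58.0% of 1285 dimmer probe sets in 631 other genes. Of the 19, 11 were lower and 2 higher (57.9% lower, against 33.2% in the other genes), and the median of dimmer minus brightest was -0.13 against -0.036. Besides Rpsa, Rpl22, Rpl41, Rps20 and Rps24, Rps9 had a dim probe set that was lower (-0.27, limma adjusted p = 0.0199) beside a brightest one at -0.068. Rps18 had 3 dim probe sets at -0.16 to -0.14, of which 1 passed, beside its brightest at -0.065. Both genes were chosen after their values were seen. Why probe sets of a gene differed was not tested, and the array values do not say which transcripts each one reads.

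**Figure D3:**
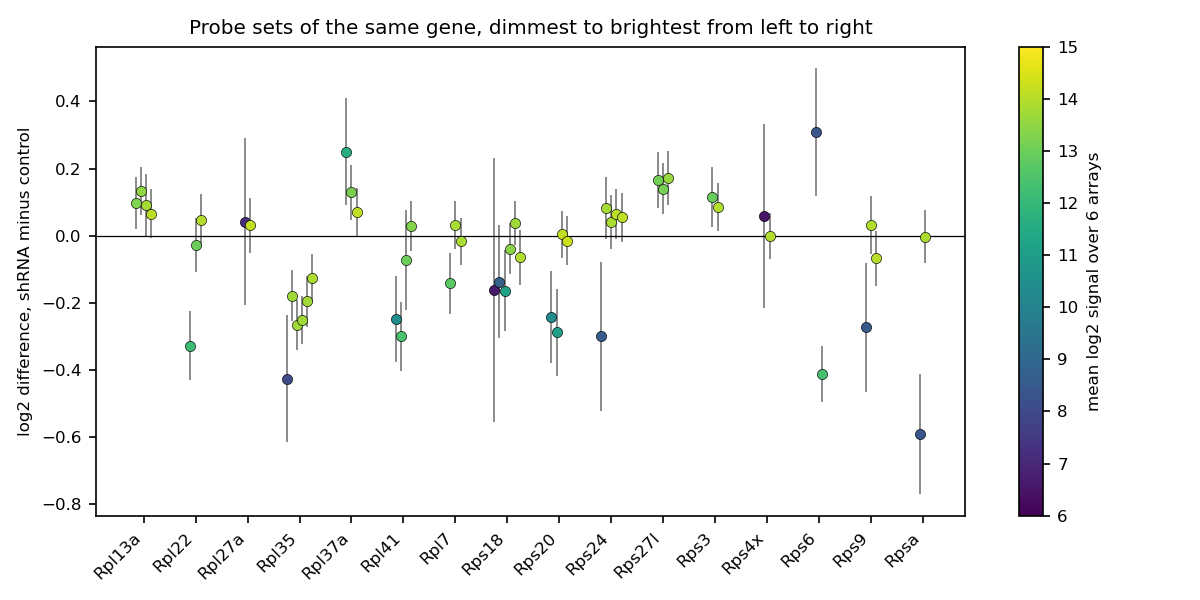
Log2 difference (shRNA minus control, with 95% intervals from limma) of each tested probe set of 16 member genes, ordered within a gene from dimmest to brightest and coloured by mean log2 signal over the 6 arrays. The dim probe sets of Rpsa, Rpl22, Rps20, Rps24 and Rps9 lie below their bright ones, the probe sets of Rpl35 all lie below 0 and those of Rps27l all above it.

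Many ribosomal protein genes have near-identical pseudogenes, and 110 further probe sets listed a ribosomal protein symbol together with other genes. They name 44 ribosomal protein symbols, 29 of which had no probe set of their own, among them Rpl3, Rpl5, Rpl10, Rpl23 and Rplp1, which are not analysed here as single genes. Of 107 tested, 6 were higher and 25 lower (29.0% called), 76 did not pass, and the median was 0.0053. Among all tested probe sets 53.9% were called, 30.4% higher and 23.5% lower. The lowest listed Rpl3 with the gene models Gm5879 and Gm12816, at -0.69, and the highest listed Rpl21 with Gm5528, at 0.77. On this highest one the groups overlapped, at 7.71 ± 0.32 in shRNA samples and 6.94 ± 0.82 in controls (limma adjusted p = 0.0464). None of these shared probe sets is counted as a change of a ribosomal protein gene.

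Genes that work with ribosomal proteins were described from 7 lists, to be read against the 58.5% of all tested genes that were called, 35.7% higher and 22.8% lower. Of 14 tested TOP mRNAs that encode translation factors and other proteins, 1 was higher and 2 lower (21.4% called), 11 did not pass, and the median was -0.013. With the arrays centred 1 was higher and 6 lower, and the median was -0.077. The initiation factor subunits Eif3h (0.16) and Eif3f (-0.18) were the increase and 1 decrease, and the RNA-binding protein Hnrnpa1 (-0.21) the other. Of the proteins of the cytosolic ribosome outside the naming rule, Fau, which encodes Rps30, did not pass (0.072), Rpl7l1 was higher (0.12) and Rpl22l1, above, was lower. Rpl7l1 was no longer called without shRNA array 1 (0.11), shRNA array 2 (0.12) or control array 2 (0.086).

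The list for control of TOP mRNA translation held genes around mTOR and Larp1 and other RNA-binding proteins, namely Cnbp, Ssb, Tia1 and Tial1. Of its tested genes 11 of 17 were changed (64.7%, near the 58.5% of all tested genes), 7 higher and 4 lower, with a median of -0.039. Centring the arrays turned this balance, to 6 higher and 8 lower, with a median of -0.10. Eif4ebp2, which holds back the cap-binding factor Eif4e, read 11.02, 11.06 and 10.96 on the shRNA arrays, against 12.05, 12.10 and 12.13 on the control arrays. It was lower on all 5 of its probe sets, by -1.08 on the one that stood for it (SE 0.044, limma adjusted p = 1.70e-09). Its relative Eif4ebp1 was higher on all 3 probe sets (0.49, limma adjusted p = 1.75e-05), and the mRNA-stabilising protein Larp4 was lower on all 3 (-0.34, limma adjusted p = 3.15e-05). Larp1 and Mtor did not pass, at -0.058 and -0.062. The arrays measure mRNA, so translation of the ribosomal protein mRNAs is not analysed here.

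Of 14 chaperones and import factors of ribosomal proteins 2 were higher and 3 lower (35.7% called), 9 did not pass, and the median was 0.0077; with the arrays centred 2 were higher and 5 lower, and the median was -0.056. The importin Ipo5 read 11.81, 11.98 and 12.10 on the shRNA arrays and 12.79, 12.72 and 12.76 on the control arrays. These did not overlap and lay apart by -0.79 (SE 0.060, limma adjusted p = 2.33e-07). Kpnb1, importin beta, was lower by -0.16, and the large subunit assembly factor Brix1 was higher by 0.19. Of 16 enzymes that modify ribosomal proteins 8 were higher, 4 lower and 4 did not pass (75% called, median 0.17), against 58.5% called of all tested genes. The decreases numbered 2 without shRNA array 3, control array 1 or control array 2. The changes were led by the hydroxylase of Rpl27a, Riox2 (0.59, on 1 of its 4 probe sets, and 0.095 without shRNA array 3, where it did not pass), by Ddrgk1 of the UFM1 pathway (0.42) and by the ubiquitin ligase Rnf25 (0.39).

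Of 12 transcription factors reported at ribosomal protein promoters 2 were higher and 4 lower (50% called), 6 did not pass, and the median was -0.051. With the arrays centred 1 was higher and 5 lower, and without shRNA array 1 the counts were 1 and 3. Gabpa, which binds the ETS core shown above, read 11.15, 11.22 and 11.22 on the shRNA arrays, against 11.91, 11.72 and 11.81 on the control arrays. It was lower on both probe sets, by -0.62 (SE 0.051, limma adjusted p = 5.53e-07) on the one that stood for it. Ets1 was lower on all 4 of its probe sets (-0.38, limma adjusted p = 1.31e-05) and Yy1 on 1 of 4 (-0.20, limma adjusted p = 0.000529). Whether these changes bear on the ribosomal protein genes was not tested.

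Of 9 genes of the p53 response to ribosome stress 7 were higher and 1 lower (88.9% called, against 58.5% of all tested genes, of which 35.7% were higher), 1 did not pass, and the median was 0.38. With the arrays centred 6 were higher and 1 lower. Trp53inp1, a p53 target, read 13.69, 13.74 and 13.80 on the shRNA arrays, against 13.09, 13.03 and 13.02 on the control arrays. These did not overlap and lay apart by 0.70 (SE 0.038, limma adjusted p = 1.22e-08). The apoptosis gene Bbc3 (0.79, limma adjusted p = 1.28e-06) and the RNA-binding p53 target Zmat3 (0.39, limma adjusted p = 1.87e-06) were higher too. Mdm2, the ligase that free ribosomal proteins bind, was higher by 0.24, its relative Mdm4 was lower by -0.44, and the cell cycle inhibitor Cdkn1a stood at 0.00031 and did not pass. Rps27l, described above, is also known as a p53 target and is not counted in this list. Whether ribosome stress or free ribosomal proteins had a part in these changes was not tested.

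**Figure D4:**
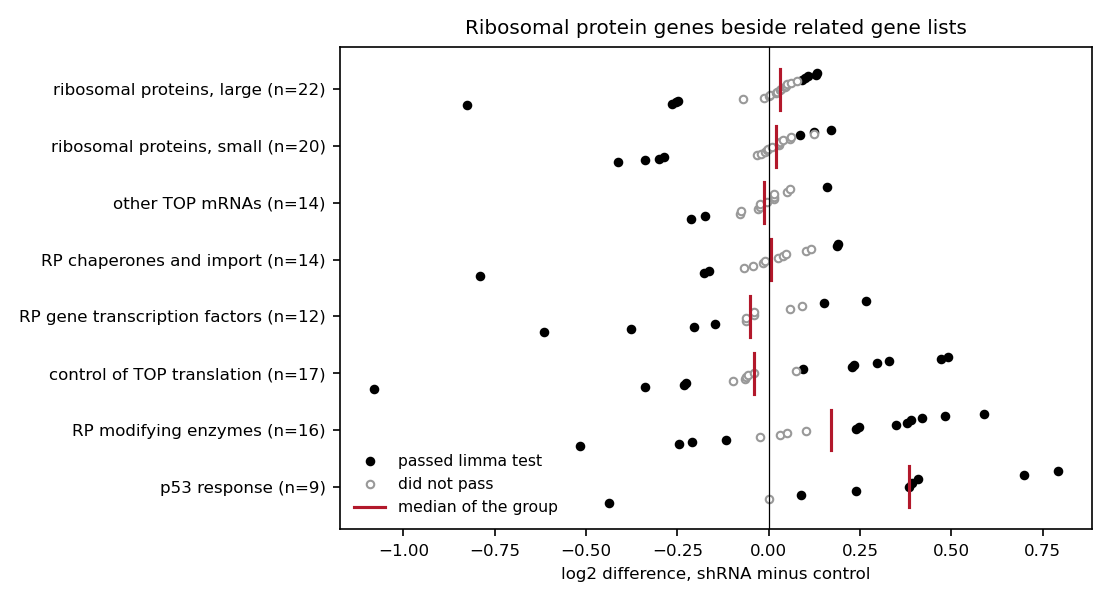
Log2 difference (shRNA minus control) of the tested ribosomal protein genes of each subunit and of the genes of 6 related lists, 1 point per gene; filled points passed limma's test and red lines are medians. Ribosomal proteins and other TOP mRNAs cluster near 0 and the p53 response genes lie mostly above it.

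The arrays themselves were alike within groups, with correlations across tested probe sets of 0.996 to 0.997, against 0.976 to 0.981 between groups. Per array, the median deviation of the tested members from their mean over the 3 control arrays was taken. For the large subunit it ran from 0.0068 to 0.068 in shRNA samples and from -0.028 to 0.043 in controls, so the groups overlapped. For the small subunit it ran from 0.0062 to 0.031 in shRNA samples and from -0.031 to 0.043 in controls, with the same overlap. The 3′ minus 5′ log2 signal of the GAPDH control, a sign of RNA integrity, was 0.23 ± 0.038 in shRNA samples and 0.14 ± 0.045 in controls, and that of actin 0.55 ± 0.017 in shRNA samples and 0.51 ± 0.018 in controls (each exact permutation p = 0.1, two-sided, the smallest that 20 assignments allow). Its part in the members' changes was not tested. The control probe set for the middle of 18S ribosomal RNA averaged 12.6 ± 0.16 in shRNA samples and 12.5 ± 0.29 in controls (exact permutation p = 0.7).

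Markers of the labelled cells were bright. All 8 myoblast and muscle markers were tested. Their mean log2 signal was 12.56 to 12.63 on shRNA arrays and 12.35 to 12.45 on control arrays. Of the 8 markers, 3 were higher (Pax7, Cdh15 and Myf5), 1 was lower (Myog) and 4 were not past the threshold. Of 8 markers each, 5 for fibroblasts, 4 for leukocytes and 1 for endothelium were bright enough to be tested, and their mean signals lay between 6.85 and 6.98 on shRNA arrays and 6.94 and 7.00 on control arrays for fibroblasts. They lay between 6.17 and 6.37 on shRNA arrays and 6.13 and 6.33 on control arrays for leukocytes, and between 6.03 and 6.30 on shRNA arrays and 6.12 and 6.23 on control arrays for endothelium. Fibroblast markers moved both ways, with Pdgfra higher by 0.89 and Col1a1, Col1a2 and Col3a1 lower by -0.51 to -0.42. The call of Col1a1 was lost without shRNA array 1 and without any 1 control array. Of the 4 tested leukocyte markers Cd68, of macrophages, was higher by 0.33 (limma adjusted p = 0.0331) and the other 3 did not pass; with the arrays centred, or without any 1 array other than control array 1, none of the 4 passed. Their part in the members' changes was not tested, and fewer cells of a type cannot be told apart from less RNA per cell.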

How the data were processed

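The authors' deposited values are log2 signals of Affymetrix mouse genome arrays, normalized by them, with 1 value for each probe set on each array. Per the submitters' processing notes PLIER and MAS5 were used, with their roles, versions and background correction not given in the sources used here. The median over all probe sets was 7.23 on LncMyoD shRNA array 1. No detection calls were used, and precision is limited by having 3 arrays in a group; 0 value columns were left without a sample.

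After 64 control probe sets, the 40% with the lowest mean (18015) were left out, which kept 27022. A gene was represented by its brightest probe set, with _x_at ones used only where it had no other. Differences were tested with limma 3.58.1 in R 4.3.3 (lmFit, eBayes with a mean-variance trend), with Benjamini-Hochberg adjustment over all tested probe sets at 0.05. The calculations were tested on simulated data.

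Members, related lists and markers were chosen with earlier results of these data known. Genes named were paralog pairs, members with known roles, the largest changes of each subunit without overlap, members called in opposite directions and up to 3 genes of each list with the smallest p. Other members, Mdm2, Mdm4, Cdkn1a, Larp1, Mtor, Fau and the markers Myog, Col1a1, Pdgfra and Cd68 were named after their values were seen. Promoter windows came from RefSeq (GRCm38.p6), the first listed for a gene. Alternatives covered normalization, filtering, the variance trend, the probe set chosen, robust estimation, a replicate block and each array left out.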

Additional observations from a re-analysis of the deposited data

How the results depend on the processing

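The decreases held better than the increases. Rpl14, Rpl35 and Rps27l kept their call in all 17 alternatives, and Rpl37 and Rps2 in the 16 that could test them; with their single probe set ending in _x_at left out, they had no value. Beside the median-centred values given above (0 large and 1 small subunit genes higher, medians -0.032 and -0.045), large subunit increases numbered 2 with spike scaling, 1 without a variance trend and 3 when the brightest probe set stood for a gene whatever its suffix, a choice added after seeing the data. Small subunit increases numbered 1 without a variance trend, and small subunit decreases 2 with the brightest probe set. Leaving out each array gave 1 to 7 large subunit increases, against 5, and 1 to 3 small subunit increases, against 3. Same-numbered arrays of the groups did not deviate together (r = -0.13, -0.062 and 0.031). With 3 arrays in a group these values cannot decide whether the numbers pair the samples. With the replicate number as a block 2 large subunit genes were higher and 4 lower, and 2 small subunit genes higher and 4 lower. Among values that passed the test in at least 1 of the settings compared, direction reversed on averaging all probe sets of a gene for Rpl22 (-0.10, limma adjusted p = 0.0359) and Rps9 (-0.10, 0.0266), for Rps9 with _x_at and _s_at probe sets left out (-0.27, 0.0208), and with the brightest probe set for Rpl41 (0.030, 0.495) and Rps24 (0.055, 0.187); Rps6 averaged -0.052 (0.403) over its probe sets. The cause was not tested beyond the change of probe set itself. Over the 42 member genes and all alternatives, 597 comparisons kept their direction and side of the threshold, 45 lost a call, 9 gained one and the 5 above reversed. A further 53, from 22 genes, passed in neither of the settings compared and changed sign at values of at most 0.088 in size, 17 of them with the arrays centred.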
